A study of Mus musculus with 12 samples.

Results

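Transforming growth factor beta (TGF-beta) reaches a cell through a small set of gene products, and 10 of their genes were followed here in colonic myofibroblasts with and without TNFR1. The members were the rows of the deposited table whose symbol named a ligand (Tgfb1, Tgfb2, Tgfb3), a receptor (Tgfbr1, Tgfbr2, Tgfbr3) or a latent TGF-beta binding protein (Ltbp1, Ltbp2, Ltbp3, Ltbp4). All 10 were found among 24411 rows, and all 10 were among the 12146 genes that passed the filter on low counts. RNA was sequenced from primary mesenchymal cells of the distal colon of 16-week-old C57BL/6 mice, either TNFR1-/- (knockout, 6 libraries) or TNFR1+/- (control, 6 libraries). The controls thus carry 1 mutant allele too. The untreated cells were at passage 6 to 8 and were collected on day 5 in Matrigel, a basement membrane gel. They had first been expanded in serum with epidermal growth factor, insulin, transferrin and selenium, and how many mice gave the 6 libraries of a group is not given in the sources used here.

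TGF-beta is secreted as a latent complex. Each ligand stays bound to its own cleaved propeptide, and a latent binding protein can link that complex covalently and tether it to fibrillin and fibronectin fibres until integrins, proteases or thrombospondin release the ligand. Free ligand binds TGFBR2, which phosphorylates and activates TGFBR1, while TGFBR3 (betaglycan) is a co-receptor that presents ligand, above all TGF-beta 2. The activated receptor phosphorylates SMAD2 and SMAD3, and in the gut mesenchyme this pathway is known for driving myofibroblast contractility and matrix production.

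Total counts were 6543013 to 9937008 in knockout and 11890729 to 16458689 in control libraries, and the members had between 56 and 8259 counts in a library. The targeted gene Tnfrsf1a was at 40.6 to 46.1 CPM (counts scaled to a common library size) in the knockout and at 54.9 to 81.3 CPM in the control, lowest of the controls in control 6. Which exons are left in its transcript cannot be read from this table. The libraries of a genotype were not alike: knockout 5 and 6 correlated with knockout 1 to 4 at a Spearman rho across genes of 0.926 to 0.927, against 0.989 to 0.997 among knockout 1 to 4, and control 6 correlated with control 1 to 5 at 0.952 to 0.954, against 0.996 to 0.998 among those 5. Likeness also ran across genotype: control 6 correlated more highly with knockout 1 to 4 (0.968 to 0.976) than with the other controls, and control 1 to 5 correlated with knockout 1 to 4 at 0.937 to 0.941. The ribosomal RNA precursor Rn45s took 7.01% and 8.25% of the counts of knockout 5 and 6 and less in the other 10. Fibroblast markers were abundant (Col1a1 at a mean of 9387 CPM in the control), as were markers of myofibroblasts (Acta2 at 1821 CPM), and the epithelial genes Epcam and Cdh1 were near 0. The 2 epithelial markers with enough counts to be tested were Krt19, at 7.33 CPM in the control and 10.7 CPM in the knockout, and Krt20, at 1.94 and 5.20 CPM. Whether the 6 libraries of a genotype are separate cultures is not stated, so each p-value reflects the scatter of the samples at hand, part of which could be technical.

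In the knockout 3 members were higher (Tgfb2, Tgfb3, Ltbp1), 2 were lower (Tgfb1, Tgfbr2) and 5 did not pass an adjusted p of 0.05. The test was the edgeR quasi-likelihood test with Benjamini-Hochberg adjustment over all tested genes, used throughout, and log2 differences in brackets are followed by ± SE. Over all 12146 genes 43.0% were called, 21.4% higher and 21.6% lower, so 5 of 10 members is a share near the background. The 2 groups of 6 libraries did not overlap for 4 members (Tgfb1, Tgfb2, Tgfbr2, Ltbp3), against 23.0% of all tested genes. The median log2 difference, knockout minus control, was -0.10 over the members and 0.02 over all tested genes. Without knockout 5 and 6 the counts were 3 higher and 3 lower, where 52.0% of all genes were called, and without control 6 as well they were 4 and 4, where 71.3% were. In that last fit set and genotype cannot be told apart. The libraries were also summed into 4 sets (knockout 1 to 4, knockout 5 and 6, control 1 to 5, control 6). There edgeR called 0 members and 0 of all 13132 tested genes, and DESeq2 0 members and 198 of all genes. At an unadjusted edgeR p below 0.05 were 2 of 10 members (Tgfb2, Tgfbr2), against 7.97% of all tested genes.

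**Figure D1:**
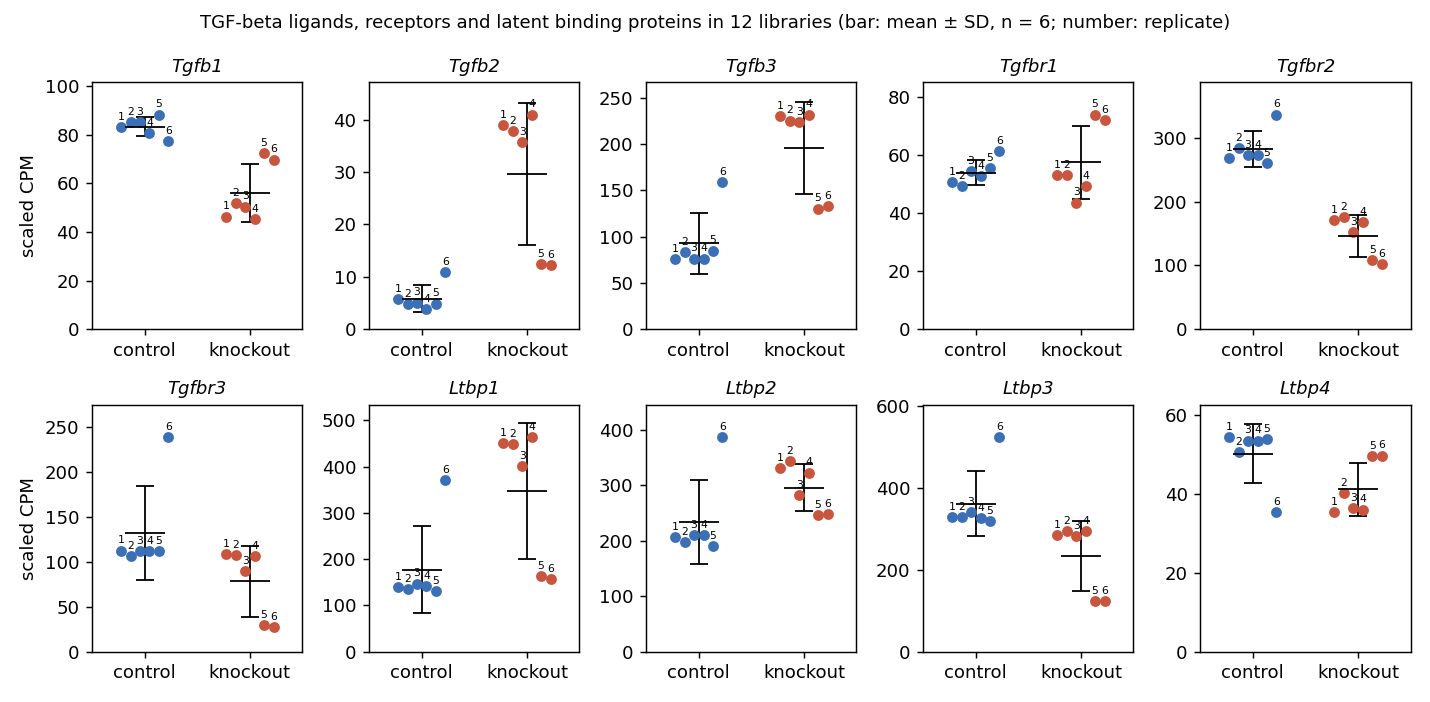
Level of each member in scaled CPM (vertical axes, each from 0) in 6 control (blue) and 6 knockout (red) libraries, numbered by replicate, with bars at the mean ± SD. Knockout 5 and 6 lie outside the range of knockout 1 to 4, and control 6 outside the range of control 1 to 5, for all 10 members.

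The ligands moved in opposite directions. Tgfb1, the most widely expressed isoform, was at 77.4 CPM in its lowest control library, at a median of 84.1 CPM and at most at 88.3 CPM, and in the knockout it ran from 45.2 CPM through a median of 51.2 CPM to 72.3 CPM. All 6 knockout libraries lay below all 6 controls, and the nearest to them were the fifth and sixth, with 72.3 and 69.7 CPM. Tgfb1 fell by 0.57 on the log2 scale (SE 0.12; edgeR adjusted p = 0.00254). In bulk RNA, fewer cells of a type and less RNA per cell cannot be told apart.

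Tgfb2, the isoform that depends most on betaglycan for binding, had the largest difference of the 10 members. It ran from 3.92 CPM through a median of 4.99 CPM to 10.9 CPM in the control and from 12.2 CPM through 36.8 CPM to 41.0 CPM in the knockout. The groups did not overlap, but control 6, the highest control, lay just below knockout 5 and 6, at 12.4 and 12.2 CPM, while knockout 1 to 4 were at 35.8 to 41.0 CPM. The difference was 2.33 on the log2 scale (SE 0.37; edgeR adjusted p = 0.000344), a fold of 5.03.

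Tgfb3 averaged 92.6 ± 32.7 CPM in the control (SD, n = 6) and was higher in the knockout, at 195.6 ± 49.6 CPM (SD, n = 6). Its control libraries ran from 76.0 CPM through 79.8 CPM to 159.0 CPM and its knockout libraries from 130.3 CPM through 224.3 CPM to 231.8 CPM. Control 6 was the highest control and lay above knockout 5 and 6, so the groups overlapped. The log2 difference was 1.08 (SE 0.22; edgeR adjusted p = 0.00213). The calls on the 3 ligands held in each fit that left out 1 library. Such a fit keeps other libraries much like the one left out, except for control 6. On the 4 summed sets none of the 3 ligands passed (edgeR adjusted p = 0.61 to 0.70).

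Levels of different genes were compared per kilobase of the longest coding transcript, which may not be the form these cells use. On that scale the leading ligand differed between libraries. With the median transcript length the leading ligand changed in no library. Tgfb1 made up 60.5% to 62.4% of the ligand level in control 1 to 5, and Tgfb3 36.0% to 38.0%. In knockout 1 to 4 Tgfb3 made up 68.1% to 70.4% and Tgfb1 21.4% to 24.4%. The libraries that stand apart met in between, with Tgfb3 at 51.9% and 53.3% in knockout 5 and 6 and at 55.5% in control 6. Tgfb2 was the least abundant isoform in all 12 libraries, with a median share of 7.41% in the knockout and 1.51% in the control. The summed ligand counts ran from 215.0 to 318.0 CPM in the knockout and from 160.9 to 247.3 CPM in the control.

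**Figure D2:**
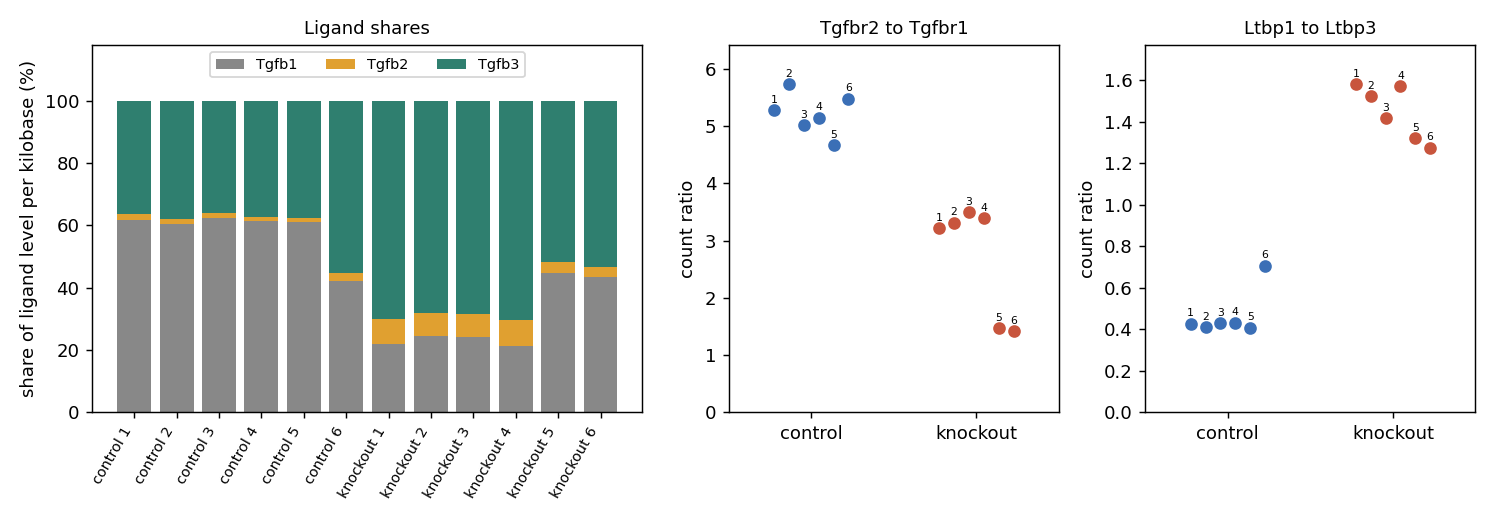
Left, shares of the 3 ligands in percent of their level per kilobase, as stacked bars for each library; middle and right, the ratio of Tgfbr2 to Tgfbr1 counts and of Ltbp1 to Ltbp3 counts, 1 point a library, with replicate numbers. Tgfb3 takes the largest share in all knockout libraries and in control 6, and both ratios separate the groups, from 1.42 to 3.50 against 4.68 to 5.74 and from 1.27 to 1.58 against 0.407 to 0.706.

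The sequences before the transcription start are shown for the called members that the RefSeq promoter table holds. Of the 10 members, 8 had entries, with 12 windows in all; Tgfb3 and Tgfbr3 had none. Each run is the 250 bases before a RefSeq start site, in build GRCm38.p6 and read 5′ to 3′ on the gene's strand. Capitals mark matches, on either strand, to the GC box GGGCGG, the TATA box TATAAA, the AP-1 motif TGANTCA, the CRE motif TGACGTCA, the E-box CACGTG, the SMAD box CAGACA or the NF-kB consensus, and where matches overlap they share capitals. The windows are Tgfb1 at chr7:25686752-25687001 (+), Tgfb2 at chr1:186705990-186706239 (-), Tgfbr2 at chr9:116175364-116175613 (-), and the upstream and downstream start sites of Ltbp1 at chr17:75005279-75005528 (+) and chr17:75178531-75178780 (+).
Tgfb1: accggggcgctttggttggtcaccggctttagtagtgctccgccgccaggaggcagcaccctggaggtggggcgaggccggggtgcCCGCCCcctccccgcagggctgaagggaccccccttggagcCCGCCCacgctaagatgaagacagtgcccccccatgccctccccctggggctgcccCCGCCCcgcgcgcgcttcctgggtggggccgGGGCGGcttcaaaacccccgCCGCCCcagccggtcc
Tgfb2: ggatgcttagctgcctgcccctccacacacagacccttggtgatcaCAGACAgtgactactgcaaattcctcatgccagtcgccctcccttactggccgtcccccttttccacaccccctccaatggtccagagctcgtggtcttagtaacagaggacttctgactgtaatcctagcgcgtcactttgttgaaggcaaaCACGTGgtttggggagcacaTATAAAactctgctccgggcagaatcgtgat
Tgfbr2: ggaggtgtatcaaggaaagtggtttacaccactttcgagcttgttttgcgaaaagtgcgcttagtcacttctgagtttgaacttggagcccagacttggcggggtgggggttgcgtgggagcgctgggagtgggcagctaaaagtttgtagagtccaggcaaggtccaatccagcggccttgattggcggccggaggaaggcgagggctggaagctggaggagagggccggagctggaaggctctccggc
Ltbp1 upstream: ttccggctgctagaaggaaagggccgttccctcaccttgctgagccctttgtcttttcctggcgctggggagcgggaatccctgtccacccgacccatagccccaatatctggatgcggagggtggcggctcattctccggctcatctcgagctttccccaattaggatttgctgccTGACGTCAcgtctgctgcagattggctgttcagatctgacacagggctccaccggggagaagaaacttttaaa
Ltbp1 downstream: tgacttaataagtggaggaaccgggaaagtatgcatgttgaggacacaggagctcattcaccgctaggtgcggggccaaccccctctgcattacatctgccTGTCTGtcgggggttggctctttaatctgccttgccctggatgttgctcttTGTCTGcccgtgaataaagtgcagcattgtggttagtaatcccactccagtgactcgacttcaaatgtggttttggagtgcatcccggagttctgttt

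The 2 ligand promoters differ. The Tgfb1 window had a GC content of 75.2% with 21 CpG dinucleotides and 5 GC boxes, and no TATA match. The Tgfb2 window had a GC content of 53.6%, 8 CpG dinucleotides, no GC box and a TATA match starting at position -31. It also held an E-box at position -51 and a SMAD box at position -204, with positions counted from the start site. Over all 32851 promoter windows of this length the median GC content was 52.4% with 6 CpG dinucleotides, 32.7% held a GC box, 12.4% a TATA match and 6.02% an E-box. The upstream Ltbp1 window held a CRE at position -73, as did 1.55% of all windows, and its downstream window held 2 SMAD boxes, a motif of 17.1% of windows. The NF-kB consensus (3.9% of all windows) and the AP-1 motif (6.75%) had no match in the 12 member windows, which says only that these letters are not there. The Tgfbr2 window, of a gene that was lower as Tgfb1 was, had a GC content of 58.4% and none of the 7 motifs. The windows of Ltbp1, which was higher, had 56.8% and 50.8%. Windows of members not called ran from 47.2% (Ltbp3) to 79.2% (Ltbp4). A link between composition and direction was not tested. Which of the Ltbp1 start sites these cells used cannot be read from counts per gene.

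Of the receptors, the ligand-binding kinase gene Tgfbr2 was the member called. Its control libraries ran from 259.8 CPM through 272.9 CPM to 336.4 CPM and its knockout libraries from 102.7 CPM through 160.1 CPM to 176.0 CPM. The groups were far apart, with knockout 5 and 6 lowest and control 6 highest. Tgfbr2 fell by 0.95 on the log2 scale (SE 0.14; edgeR adjusted p = 0.00029).

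Tgfbr1, the signalling kinase partner, was at 49.4 to 61.4 CPM in the control and at 43.7 to 74.1 CPM in the knockout, with knockout 5 and 6 above every control and knockout 3 and 4 below every control. Its log2 difference was 0.09 (SE 0.13; edgeR adjusted p = 0.593), and -0.12 without knockout 5 and 6. Tgfbr2 counts per Tgfbr1 count had a median of 5.22 in the control and 3.27 in the knockout, without overlap. Of 6 such ratios between members, 3 separated the groups; they do not depend on library scaling and were not tested.

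Betaglycan, Tgfbr3, had a log2 difference of -0.76 (SE 0.37) and did not pass the test (edgeR adjusted p = 0.11). Knockout 1 to 4 were at 89.7 to 108.6 CPM and control 1 to 5 at 106.6 to 112.3 CPM. The low values were knockout 5 and 6, at 29.7 and 27.0 CPM, and the high value was control 6, at 238.6 CPM. Without these 3 libraries the log2 difference was -0.10 (SE 0.05).

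**Figure D3:**
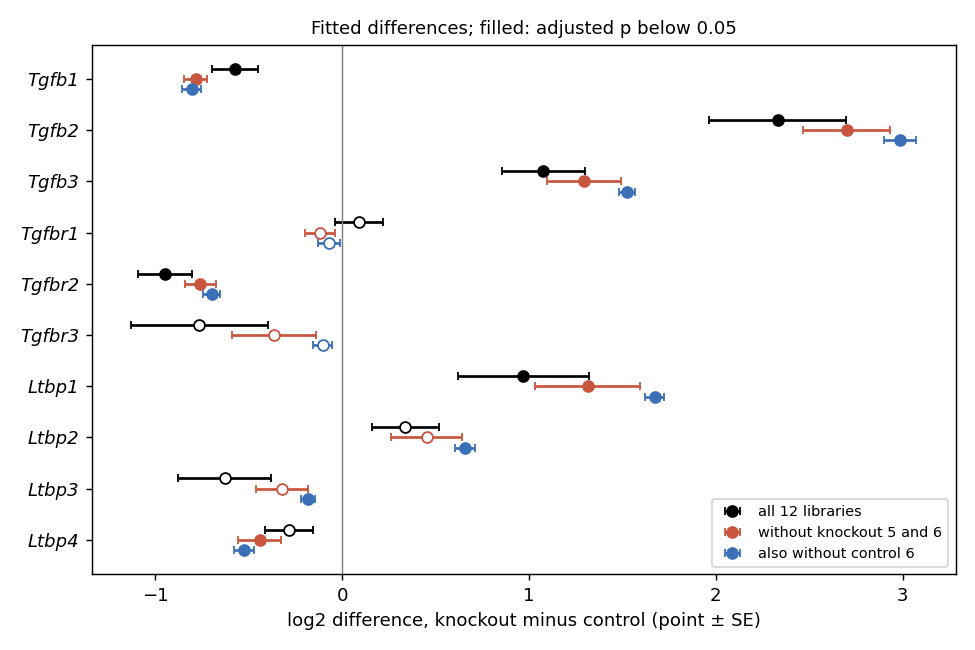
Fitted log2 difference, knockout minus control, with its SE (horizontal axis) for each member (vertical axis) over all 12 libraries, without knockout 5 and 6, and without control 6 as well; filled points have an adjusted p below 0.05. Tgfb1, Tgfb2, Tgfb3, Tgfbr2 and Ltbp1 are filled in all 3 fits, and Tgfbr3 and Tgfbr1 in none.

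Of the 4 latent binding proteins 1 was higher, 0 were lower and 3 did not pass. Ltbp1, which anchors latent ligand to the matrix, was higher in the knockout, at 347.8 ± 146.8 CPM against 177.5 ± 94.8 CPM in the control (SD, n = 6). Its log2 difference was 0.97 ± 0.35 (SE), with an edgeR adjusted p of 0.0405. Its lowest, median and highest values were 130.4, 140.8 and 370.7 CPM in the control and 157.5, 424.9 and 464.4 CPM in the knockout. Control 6 lay above knockout 5 and 6, at 163.1 and 157.5 CPM, and these 2 lay above control 1 to 5, at 130.4 to 147.1 CPM. The call was lost when any of knockout 1 to 4 or control 1 to 5 was left out (edgeR adjusted p = 0.0676 to 0.0853).

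Ltbp3, which binds latent TGF-beta and is known for its role in bone, was at 320.1 to 525.2 CPM in the control, with a median of 328.8 CPM, and at 123.6 to 295.6 CPM in the knockout, with a median of 284.2 CPM. All knockout libraries lay below all controls, yet the difference of -0.63 (SE 0.25) did not pass (edgeR adjusted p = 0.0564; DESeq2 adjusted p = 0.0348). Its call thus differed between the tests. In every knockout library Ltbp1 had more counts than Ltbp3, at a ratio of 1.27 to 1.58, and in every control fewer, at 0.407 to 0.706. Which of the 2 leads depends on the transcript length used. Per kilobase of the longest coding transcript Ltbp1 lay just below Ltbp3 in knockout 6 (23.6 against 23.8). With the median transcript length Ltbp3 was higher in every library, at knockout medians of 204.9 against 84.9.

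Ltbp2, which does not bind latent TGF-beta, was at 190.5 to 387.2 CPM in the control and at 245.9 to 343.2 CPM in the knockout. Its log2 difference was 0.34 (SE 0.18; edgeR adjusted p = 0.139), and without control 6, its highest control, it was 0.54 (edgeR adjusted p = 0.000787). Ltbp4, a binding protein tied to elastic fibres, was at 35.3 to 54.4 CPM in the control and at 35.3 to 49.7 CPM in the knockout, a log2 difference of -0.28 (SE 0.13; edgeR adjusted p = 0.0944). Control 6 was its lowest control, in the range of knockout 1 to 4, and without it the difference was -0.37 (edgeR adjusted p = 0.0118). Ltbp4 also passed with control 6 kept and knockout 5 and 6 left out (-0.44; edgeR adjusted p = 0.00885), and both genes passed in limma-voom with sample weights on all 12 libraries.

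**Figure D4:**
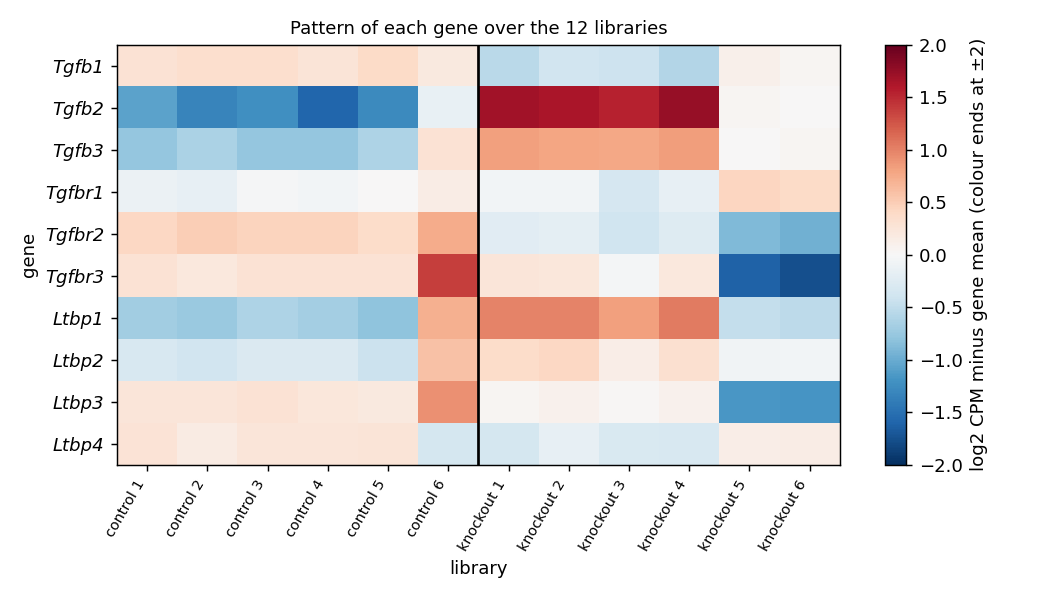
Log2 CPM of each member (rows) minus its own mean over the 12 libraries (columns; controls left of the line, knockouts right), red above and blue below the mean, with colours ending at 2 in either direction. Tgfb2, Tgfb3 and Ltbp1 are red in knockout 1 to 4 and blue in control 1 to 5, while Tgfbr3 and Ltbp3 are reddest in control 6 and bluest in knockout 5 and 6.

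The summed level of the 10 members separated the 4 sets of libraries. It was 1598 to 1778 CPM in knockout 1 to 4 but 1010 CPM in the fifth knockout library and 996 CPM in the sixth, and it was 1300 to 1359 CPM in control 1 to 5 but 2202 CPM in control 6. Likeness between genes was described by the root mean square difference of centred log2 CPM over the 12 libraries, which fall into these 4 sets. The member closest to Tgfb3 was Ltbp1 (0.27), the member closest to Tgfbr2 was Ltbp3 (0.26), and Tgfb1 and Ltbp4 were closest to each other (0.21). Outside the members the closest genes were Mfsd10 to Tgfb1 (0.07), Eno3 to Tgfb2 (0.16), Prepl to Tgfb3 (0.05), B4galt5 to Tgfbr2 (0.08) and Mrc2 to Tgfbr3 (0.10). They were Zfp592 to Tgfbr1 (0.06), Fam49a to Ltbp1 (0.10), Gtf3c1 to Ltbp2 (0.06), Slc38a10 to Ltbp3 (0.08) and Fem1b to Ltbp4 (0.06).

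Of 61 other genes of the pathway 59 were tested, of which 19 were higher (32.2%), 10 were lower (16.9%) and 30 did not pass, with a median log2 difference of 0.04. Over all tested genes 21.4% were higher and 21.6% lower. Without knockout 5 and 6 the lower count was 18 and the higher count changed by a smaller factor, in a fit that called 52.0% of all genes. Without control 6 as well the counts were 34 and 19, in a fit that called 71.3% of all genes. Genes for release and anchoring of the latent complex numbered 16, of which 2 rose, 2 fell and 12 did not pass (median -0.13). The integrin chains Itgav and Itgb1, parts of receptors that can activate latent TGF-beta, rose from 294.5 to 672.7 CPM (1.19 ± 0.26) and from 1792 to 3153 CPM (0.81 ± 0.20). For both, control 6 lay above knockout 5 and 6, so the groups overlapped. The gelatinases Mmp2 and Mmp9 fell from 509.0 to 162.8 CPM (-1.64 ± 0.22) and from 2.59 to 0.359 CPM (-2.74 ± 0.57), and for Mmp9 the groups overlapped. Mmp9 was near 0, at 0 to 0.158 CPM in knockout 1 to 4. It had enough counts for only 19 of the alternative fits, against 25 for Mmp2. The partners Itgb6 and Itgb8 had too few counts to be tested.

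Co-receptors and extracellular traps numbered 9, of which 3 rose, 2 fell and 4 did not pass (median 0.23). The small proteoglycan Dcn, which binds TGF-beta, fell from 621.0 to 190.9 CPM (-1.70 ± 0.12), and the type I receptor Acvrl1 fell from 56.7 to 42.0 CPM (-0.43 ± 0.12). Cd109, a membrane co-receptor that dampens the signal, rose from 14.3 to 39.5 CPM (1.46 ± 0.27) and the decoy receptor Bambi from 6.14 to 12.2 CPM (0.99 ± 0.18). For Cd109 control 6, at 29.4 CPM, lay within the knockout range, as it did for Bambi, at 8.14 CPM.

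Among the SMAD signal transducers 1 of 4 was lower and none higher (median -0.19). Smad3 was lower in the knockout, at 70.0 ± 15.0 CPM against 107.3 ± 6.92 CPM (SD, n = 6), and all knockout libraries lay below all controls. Its log2 difference was -0.62 ± 0.13 (SE), with an edgeR adjusted p of 0.0026. Smad2, named after its values were seen, was at 65.4 CPM in the control and 78.2 CPM in the knockout and did not pass (edgeR adjusted p = 0.062). Inhibitors of SMAD signalling numbered 11, of which 5 rose, 2 fell and 4 did not pass (median 0.49). Smad6, an inhibitory SMAD, rose from 13.0 to 34.6 CPM (1.41 ± 0.21) and the ubiquitin ligase Smurf2 from 94.4 to 155.7 CPM (0.72 ± 0.13), while its relative Smurf1 fell from 149.1 to 120.4 CPM (-0.31 ± 0.09) and the co-repressor Ski from 184.7 to 162.8 CPM (-0.18 ± 0.07). The call on Ski was lost in 10 of the 12 fits without 1 library, all but those without knockout 5 or control 6 (edgeR adjusted p = 0.058 to 0.077). Smad7, induced by TGF-beta and inhibitory, was named after its values were seen. It rose from 36.4 to 99.9 CPM (1.46 ± 0.27), with knockout 1 to 4 at 63.3 to 70.9 CPM and knockout 5 and 6 at 174.1 and 158.2 CPM.

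Genes known to be induced by TGF-beta numbered 19, of which 9 rose, 3 fell and 7 did not pass (median 0.40). Tsc22d1, a leucine zipper regulator, rose from 108.0 to 231.3 CPM (1.10 ± 0.14) and the actin-binding protein gene Tagln from 1257 to 3092 CPM (1.30 ± 0.18). The matrix protein gene Tgfbi fell from 16.4 to 3.95 CPM (-2.07 ± 0.25) and the transcription factor gene Junb from 126.8 to 82.0 CPM (-0.63 ± 0.13). Ctgf, a matricellular growth factor, and the fibrillar collagen genes Col3a1 and Col1a1 were named after their values were seen. Ctgf rose from 732.8 to 3371 CPM (2.20 ± 0.38), while Col3a1 fell from 3307 to 1121 CPM (-1.56 ± 0.37) and Col1a1, at 9387 and 8066 CPM, did not pass. These means mix unlike libraries in both groups. Knockout 1 to 4 were at 2573.7 to 2932.5 CPM for Ctgf, 1434 to 1537 CPM for Col3a1 and 10467 to 11420 CPM for Col1a1. Knockout 5 and 6 were at 4878 and 4631 CPM, 373 and 338 CPM, and 1993 and 2102 CPM. Control 1 to 5 were at 450.5 to 605.8 CPM for Ctgf and at 8073 to 8992 CPM for Col1a1, below knockout 1 to 4 for both. Control 6 was at 1829 CPM for Ctgf and 13267 CPM for Col1a1. For Col3a1 control 6, at 3354 CPM, lay within the range of control 1 to 5. The list thus held genes in both directions.

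**Figure D5:**
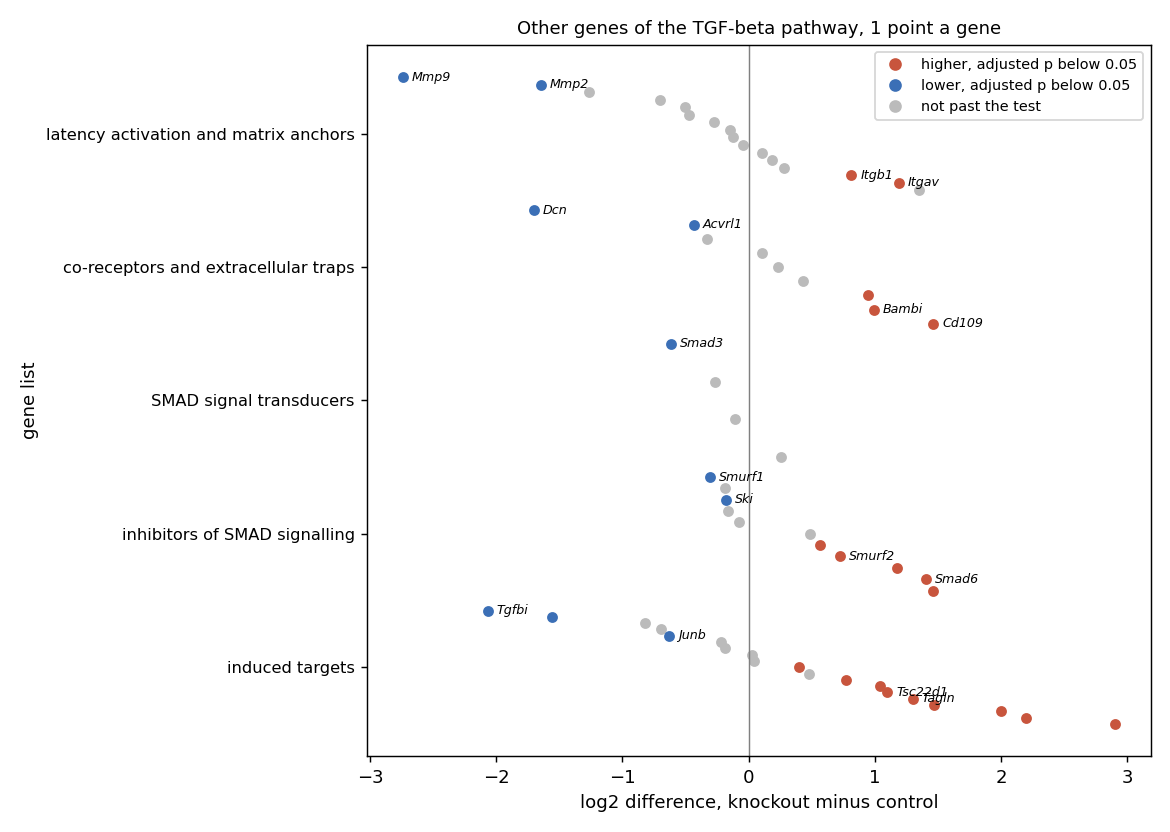
Log2 difference, knockout minus control (horizontal axis), of the 59 tested pathway genes in 5 lists (vertical axis), 1 point a gene, red or blue where the adjusted p was below 0.05 and grey otherwise; genes named by rule are labelled. Induced targets have 9 red and 3 blue points, and SMAD transducers 1 blue and no red.

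Marker lists of cell types were read against the 43.0% of all genes called, 21.4% higher and 21.6% lower. Of 9 macrophage and leukocyte markers 6 fell, 0 rose and 3 did not pass, at a summed level of 38.5 to 57.1 CPM in the knockout and 77.9 to 127.8 CPM in the control. Markers of myofibroblasts and smooth muscle numbered 7, of which 6 rose, 0 fell and 1 did not pass, at 6183 to 12836 CPM against 3010 to 6357 CPM. The groups did not overlap for 2 of these 7, against 23.0% of all tested genes. Myh11, counted as risen, was at 17.8 and 19.8 CPM in knockout 5 and 6, below every control (22.9 to 120.3 CPM). Acta2, Tagln and Cnn1 are also on the list of induced genes above and count as risen there too. Fibroblast markers numbered 8, of which 1 rose, 3 fell and 4 did not pass. Among them Dcn is also on the list of co-receptors and traps and counts as fallen there too. Col1a1 and Col1a2 are also on the list of induced genes and did not pass. Of 5 tested pericyte markers 2 rose, 0 fell and 3 did not pass. None of 2 tested epithelial markers passed, 1 of 2 endothelial markers fell, 1 of 4 glial and neuronal markers rose and 2 fell, and the 1 tested mesothelial marker did not pass. Their part in the results above was not tested.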

How the data were processed

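RNA was sequenced from 6 TNFR1 knockout and 6 control libraries of colonic myofibroblasts, after selection with oligo-dT beads and strand-specific preparation, per the labels' protocols. What the authors deposited is 1 table of expected counts, by gene symbol and not normalized. The tools listed, per the submitters' processing notes, are RSEM 1.2.15 with Bowtie2 2.1.0. The build listed there is human although the symbols are mouse, so the build is uncertain and gene coordinates are not printed; the promoter windows come from RefSeq. For annotation and strand setting nothing is stated in the labels. Per library, 2.67% to 3.48% of values had decimals and were rounded; no member had any.

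Groups and replicate numbers came from the titles. Counts were filtered with filterByExpr (minimum count 10, minimum total 15), scaled with TMM factors and tested by quasi-likelihood F-test (edgeR 4.0.16, R 4.3.3), with genotype as the only term and Benjamini-Hochberg adjustment over 12146 genes at a threshold of 0.05. CPM values use the scaled library sizes, and centred log2 CPM a prior count of 2. Lengths are those of the longest coding transcript in GENCODE M21, which may not be the annotation behind the counts.

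The members, gene lists, design and alternatives were chosen with earlier results of these data known. Named genes are Tnfrsf1a, the members and the gene nearest in pattern to each member. From each pathway list come up to 2 called genes in each direction, those with the smallest adjusted p. Ctgf stands for Ccn2, and Adgre1 for Emr1. Alternatives were other scalings, DESeq2 1.42.0, limma 3.58.1 voom with and without sample weights, other filters, a replicate block, a test against a fold of 1.5 and each library left out. Fits without knockout 5 and 6, without control 6 as well, on 4 summed sets, without Rn45s and with the median transcript length were added after the data were seen. Scripts were tested on simulated data.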

Additional observations from a re-analysis of the deposited data

Results flagged for a closer look

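In each group of 6 libraries the highest or lowest value of the 38 named genes was checked for standing apart from the others by Dixon's ratio. Of 76 such groups 26 did, and in all 26 the library was control 6. Chance gives about 1 in 20 among independent groups, which these are not: the genes share that library, and 10 of the 38 were chosen for a pattern like that of a member. The ratio uses the gap to the nearest library, so knockout 5 and 6, which lie close together, could not stand apart by it. Only genes past the ratio's threshold are given here.

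Past that threshold, control 6 was high for 7 members: Tgfb2 at 10.9 CPM (others at most 5.70 CPM), Tgfb3 at 159.0 CPM (84.9 CPM), Tgfbr2 at 336.4 CPM (283.5 CPM), Tgfbr3 at 238.6 CPM (112.3 CPM), Ltbp1 at 370.7 CPM (147.1 CPM), Ltbp2 at 387.2 CPM (210.7 CPM) and Ltbp3 at 525.2 CPM (342.1 CPM). It was low for Ltbp4, at 35.3 CPM against at least 50.6 CPM, and for Tnfrsf1a, at 54.9 CPM against at least 73.5 CPM.

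Among the pathway genes past the threshold control 6 was high for Itgav (531.5 CPM), Itgb1 (2727 CPM), Cd109 (29.4 CPM), Smad6 (23.6 CPM), Ski (204.7 CPM), Tsc22d1 (146.5 CPM) and Tagln (1953 CPM). It was low for Mmp2 (418.3 CPM) and Smurf1 (120.8 CPM). Among the genes nearest in pattern it was high for Eno3 (37.5 CPM), Prepl (70.1 CPM), B4galt5 (380.1 CPM), Mrc2 (1679 CPM), Fam49a (17.8 CPM), Gtf3c1 (195.1 CPM) and Slc38a10 (463.4 CPM), and low for Fem1b (74.7 CPM).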

How the results depend on the processing

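Library scaling changed no direction among the 10 members, and library totals added Ltbp3 to the lower calls. Over the fits without 1 library, 2 to 4 members were higher and 2 to 3 lower, 17 to 24 pathway genes higher and 8 to 12 lower, and 2148 to 3092 of all genes higher and 2270 to 2977 lower. With limma-voom sample weights 4 members were lower, 33 pathway genes higher and 18 lower, and 4452 and 4643 of all genes. Against a fold of 1.5, 1 member was higher (Tgfb2) and 1 lower (Tgfbr2), 9 pathway genes higher and 5 lower, and 467 and 706 of all genes. Without knockout 5 and 6, 18 pathway genes were lower and the higher count changed by a smaller factor, where 52.0% of all genes were called. Without control 6 as well, 4 members were lower, 34 pathway genes higher and 19 lower, and 4319 and 4508 of all genes. On 4 summed sets edgeR called 0 members, 0 pathway genes and 0 of 13132 genes in either direction, with 2, 7 and 1047 at an unadjusted p below 0.05, and DESeq2 called 0, 3 and 198; this fit has fewer samples. Signs turned for Tgfbr1 (-0.024 with voom sample weights, -0.12 without knockout 5 and 6, -0.070 without control 6 as well) and Ltbp2 (-0.046 on 4 sets). They also turned for Gtf3c1 (-0.027 on 4 sets) and Zfp592 (-0.020 with library totals, -0.092 with voom sample weights, -0.053 to 0.11 without 1 library, -0.17 without knockout 5 and 6, -0.14 without control 6 as well), and none of these values passed the test; elsewhere the cause was not tested. Tgfb2 had a median ligand share of 8.70% in the knockout and 1.79% in the control with the median transcript length.

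With the replicate number as a block, 2 members were higher and 2 lower, Ltbp1 lost its call (log2 difference 1.00, edgeR adjusted p = 0.103), 19 pathway genes were higher and 7 lower, and 32.7% of all genes were called. The block also ended the calls on Acvrl1 (edgeR adjusted p = 0.0511), Smurf1 (0.0748), Ski (0.128) and Fam49a (0.0617), and no other call on a gene named by the rule. Whether equal numbers share an animal or a day is not stated in the labels. Deviations of same-numbered libraries from their group mean correlated at -0.364 to 0.184. In no pair did both libraries correlate best with their own number. Knockout 1 to 4 all correlated best with control 6, so this check follows the sets of libraries and cannot decide whether the numbers pair them. The lowest member count was 56, for Tgfb2 in control 4.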
